A study of Mus musculus with 20 samples.

Results

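The genes described here are direct transcriptional targets of the tumour suppressor p53. The list named 10 genes, Cdkn1a, Mdm2, Ccng1, Sesn1, Bbc3, Bax, Trp53inp1, Phlda3, Aen and Gdf15, and a gene was followed where a probe set carried its symbol alone in the array annotation. This gave 8 of the 10 genes, each with 1 probe set, among 18820 genes in all. Bax and Gdf15 were not analysed here, nor was Trp53, which encodes p53. The RNA came from mHypoE-46 (E46 below) and mHypoA-2/12 (A2/12 below), 2 neuronal cell lines of the mouse hypothalamus, and was hybridised to 20 microarrays. The groups were E46 with serotonin labelled 100 µg/ml, E46 with serotonin labelled 1 µg/ml, E46 controls, A2/12 with serotonin labelled 100 µg/ml and A2/12 controls, with 4 arrays each. All cells were near confluence, were moved to medium without serum 4 h before the exposure, and were exposed for 24 h. E46 is labelled as sensitive to serotonin, and A2/12 as unresponsive to it. For the E46 serotonin arrays another label gives the doses crossed, so the title doses are used here and the groups are called labelled 100 and labelled 1.

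Lines of this kind are clones of hypothalamic cells that were immortalised with the large T antigen of a simian virus, a protein known to bind p53. T antigen was not measured here. Among the neuronal markers Rbfox3 and Snap25 were below background in all 5 groups, and 4 or 5 of 7 measured markers lay above it. Values are log2 expression levels, so a difference of 1 is a 2-fold difference. Group values are means ± SD over 4 arrays, and changes are log2 differences ± SE between groups of 4 arrays. A change was called where limma gave an adjusted p below 0.05, with the adjustment made over all 18820 genes. Nothing in the labels says which arrays came from separate cultures, so a p-value reflects only how far arrays of a group differ. All 8 genes lay above background in every group, which was the level below which 95% of 1155 odorant and pheromone receptor genes fell (4.35 to 4.66 over the groups).

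p53 is a transcription factor that is held at a low level by the ubiquitin ligase Mdm2 and accumulates after DNA damage and other stresses. It binds a response element made of a pair of similar decamers and turns on genes that stop the cell cycle, start cell death, repair DNA and adjust metabolism. Mdm2 is itself a target, which closes a negative feedback loop. Cdkn1a encodes p21, an inhibitor of cyclin-dependent kinases, and Ccng1 encodes cyclin G1. Bbc3 encodes the pro-apoptotic BCL2 family protein Puma, and Aen encodes a nuclease that acts in apoptosis. Trp53inp1 encodes a nuclear stress protein that modifies p53 activity. Sesn1 encodes sestrin 1, which restrains the growth kinase complex mTORC1, and Phlda3 encodes a protein that holds back the survival kinase Akt. Several of these genes can also be controlled by other stress factors.

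The sequences in front of these genes show which of them carry a p53 element close to the start. RefSeq promoter windows (build GRCm38.p6) of 300 bases, 250 before to 50 after a transcription start, were found for 7 of the 8 genes, with 12 windows in all, and Trp53inp1 has no entry. A p53 element was taken as a pair of decamers with a spacer of 0 to 13 bases, at most 2 mismatches to the consensus, and the C and G of each decamer's core kept. It was found in 3 of the 12 windows, and in 4.09% of 32851 windows over all genes. The 3 windows are printed 5′ to 3′ because their genes took 3 different courses below: Cdkn1a was higher with serotonin labelled 100, Sesn1 was lower and Ccng1 was not called. Capitals mark the decamers. The window of Cdkn1a belongs to the upstream of its 2 annotated starts (chr17:29090729-29091028, plus strand), that of Sesn1 to the downstream of its 2 starts (chr10:41887189-41887488, plus strand), and that of Ccng1 to its single start (chr11:40755237-40755536, minus strand).
Cdkn1a: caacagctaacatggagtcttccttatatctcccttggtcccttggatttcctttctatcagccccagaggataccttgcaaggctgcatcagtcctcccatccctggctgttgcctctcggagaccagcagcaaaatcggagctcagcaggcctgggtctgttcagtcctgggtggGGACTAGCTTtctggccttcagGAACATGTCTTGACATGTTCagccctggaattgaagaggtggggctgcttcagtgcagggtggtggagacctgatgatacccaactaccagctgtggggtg
Sesn1: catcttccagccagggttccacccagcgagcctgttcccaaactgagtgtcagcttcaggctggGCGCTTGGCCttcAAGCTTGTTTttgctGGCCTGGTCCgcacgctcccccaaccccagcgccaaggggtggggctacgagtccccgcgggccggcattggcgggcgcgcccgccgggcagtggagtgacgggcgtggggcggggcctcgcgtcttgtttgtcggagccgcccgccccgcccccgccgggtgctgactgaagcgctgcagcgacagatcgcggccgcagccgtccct
Ccng1: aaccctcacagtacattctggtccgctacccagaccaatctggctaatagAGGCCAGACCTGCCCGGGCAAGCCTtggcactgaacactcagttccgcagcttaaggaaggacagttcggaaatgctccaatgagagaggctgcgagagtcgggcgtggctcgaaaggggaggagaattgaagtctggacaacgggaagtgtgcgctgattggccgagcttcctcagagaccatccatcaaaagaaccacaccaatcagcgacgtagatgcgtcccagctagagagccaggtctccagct

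The Cdkn1a window held a pair with 0 mismatches and a spacer of 12 bases, which runs from 73 to 42 bases before the start, and 0.0731% of all windows held a pair with 0 mismatches. A further pair in it, with 1 mismatch and no spacer, shares a decamer with the first. The Ccng1 window held a pair with 1 mismatch and no spacer, from 195 to 176 bases before the start, and an overlapping pair with 2 mismatches and a spacer of 5 bases, from 200 to 176 bases before the start. The pairs in the Sesn1 window had 2 mismatches. The other windows of Cdkn1a and Sesn1 and those of Mdm2, Bbc3, Phlda3 and Aen held no match. The C/EBP-ATF element of the integrated stress response, TGATGNAAN on either strand, was in 0 of the 12 windows and in 3.95% of all windows. A match is a description of the letters and not a measured binding site, and these windows do not cover elements further away or inside the gene.

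**Figure D1:**
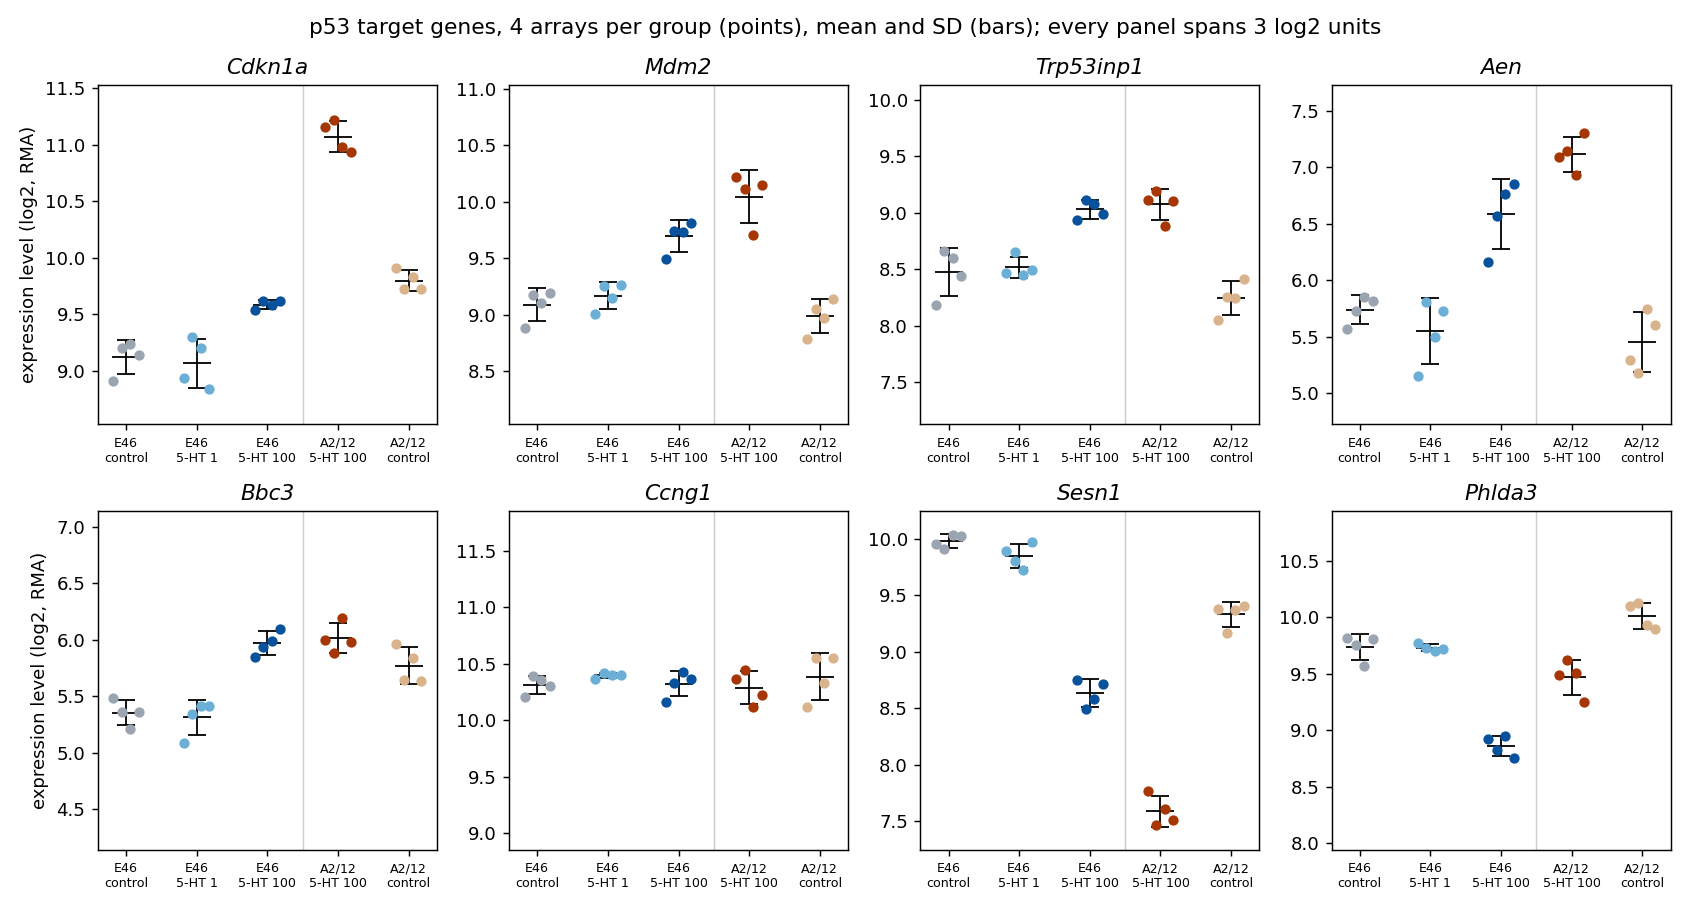
Log2 expression level of the 8 p53 target genes on each of the 20 arrays. Points are arrays and black bars are means and SD. Groups run from left to right as E46 control, E46 labelled 1, E46 labelled 100, A2/12 labelled 100 and A2/12 control (5-HT is serotonin), and each panel spans the same log2 range. Sesn1 was lower with serotonin labelled 100 in both lines, and the Ccng1 arrays overlapped in all 5 groups.

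The first comparison asked how the p53 targets stood in E46 cells after serotonin labelled 100, against E46 controls. Cdkn1a, Mdm2, Bbc3, Trp53inp1 and Aen rose, by 1.38- to 1.8-fold. Sesn1 and Phlda3 fell, and Ccng1 was not called. The change of the 8 genes had a median of 0.51, against 0.00 over all genes. Of the 8 genes, 7 were called (5 higher, 2 lower), while 39.6% of all genes were called (20.3% higher, 19.3% lower) and 58.9% of the 11574 genes above background in every group. The groups did not overlap for 7 of the 8 genes, as was so for 40.4% of all genes.

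Cdkn1a, the p21 gene, was at 9.53, 9.61, 9.58 and 9.61 in E46 arrays labelled 100, against 8.91, 9.21, 9.24 and 9.14 in E46 controls. All 4 serotonin arrays were above all 4 controls, and the change was 0.46 ± 0.10 (adjusted p = 0.000583), or 1.38-fold. Mdm2, which marks p53 for degradation, was at 9.50, 9.75, 9.74 and 9.81 in E46 arrays labelled 100, against 8.88, 9.18, 9.11 and 9.19 in E46 controls. The groups were again apart, by 0.61 ± 0.11 (adjusted p = 0.000114). Ccng1 was at 10.16, 10.33, 10.43 and 10.36 in E46 arrays labelled 100, against 10.21, 10.39, 10.36 and 10.31 in E46 controls. These groups overlapped, and the change of Ccng1 was 0.01, with a 95% confidence interval from -0.19 to 0.20 (adjusted p = 0.968).

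Of the genes tied to cell death, Bbc3 was at 5.85, 5.94, 5.99 and 6.10 in E46 arrays labelled 100, against 5.48, 5.36, 5.22 and 5.37 in E46 controls. Every serotonin array lay above the controls, with a change of 0.61 ± 0.09 (adjusted p = 1.76e-05). The nuclease gene Aen was at 6.16, 6.56, 6.77 and 6.85 in E46 arrays labelled 100, against 5.57, 5.73, 5.85 and 5.81 in E46 controls. Its serotonin arrays had the wider spread (SD 0.31, against 0.13 in controls), and the change was 0.85 ± 0.16 (adjusted p = 0.000133). Trp53inp1 was at 8.93, 9.11, 9.08 and 8.98 in E46 arrays labelled 100, against 8.18, 8.66, 8.60 and 8.44 in E46 controls. The groups did not overlap, and the change was 0.56 ± 0.10 (adjusted p = 9.25e-05).

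The metabolic and growth regulators went the other way. Sesn1 was at 8.75, 8.49, 8.58 and 8.71 in E46 arrays labelled 100, against 9.95, 9.90, 10.04 and 10.02 in E46 controls. The groups lay far apart for their spread, and Sesn1 changed by -1.34 ± 0.08 (adjusted p = 4.79e-11), or 2.54-fold lower. Phlda3 was at 8.92, 8.82, 8.95 and 8.75 in E46 arrays labelled 100, against 9.82, 9.75, 9.57 and 9.81 in E46 controls. These groups did not overlap either, and Phlda3 changed by -0.87 ± 0.08 (adjusted p = 2.22e-08), or 1.83-fold lower. Sesn1 had the largest change in size of the 8 genes, and 3.20% of all genes changed by more.

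The scan names carry a position number (5, 7 or 9), and arrays of all 5 groups are found at each number. Within the 3 numbers the E46 changes were 0.37 to 0.56 for Cdkn1a, 0.48 to 0.70 for Mdm2 and -1.55 to -1.17 for Sesn1. A number held at most 2 arrays of a group. The 7 called genes kept their direction, but their groups did not overlap, so no choice of arrays could turn it. Cdkn1a was called within none of the numbers (adjusted p = 0.0752, 0.13 and 0.617). The scan names also have a row letter that mostly follows the groups. In the 1 row that holds both kinds of E46 array, 2 labelled 100 and 1 control, the difference was 0.44 for Cdkn1a and -1.40 for Sesn1. The direction of the 7 genes was fixed there for the same reason.

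**Figure D2:**
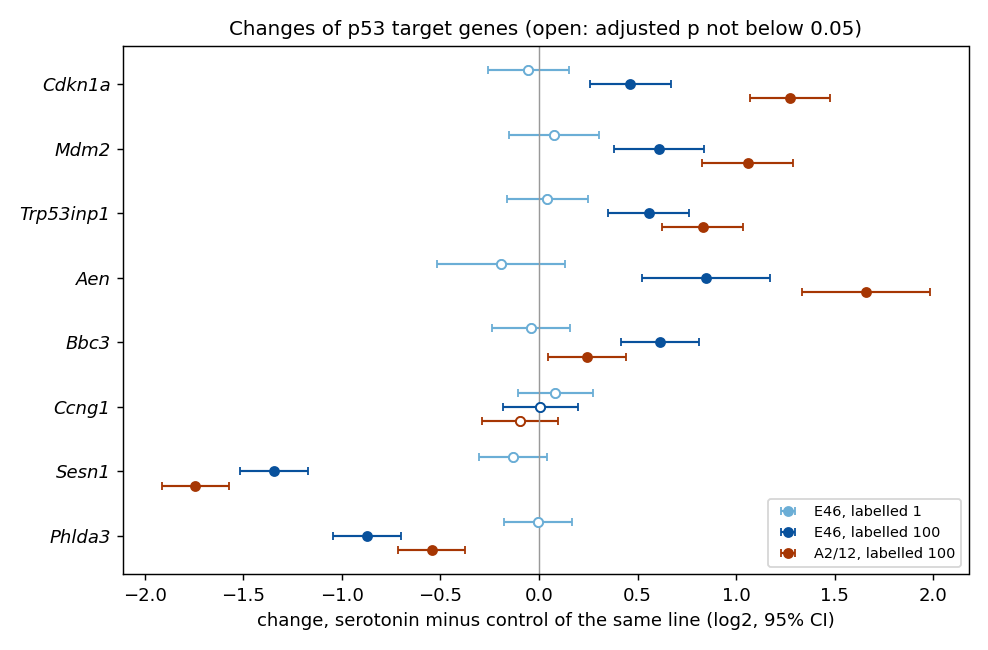
Log2 change of each of the 8 p53 target genes, with 95% confidence intervals, for E46 labelled 1 and E46 labelled 100 against E46 controls and for A2/12 labelled 100 against A2/12 controls. Open symbols were not called. At labelled 100 the same 5 genes rose and the same 2 fell in both lines, and at labelled 1 every symbol is open.

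The next comparison asked the same of A2/12, the line labelled unresponsive. The same 5 genes rose with serotonin labelled 100 against A2/12 controls, Aen by 3.16-fold, Cdkn1a by 2.42-fold and Mdm2 by 2.08-fold, while Sesn1 and Phlda3 fell. Thus 7 of the 8 genes were called (5 higher, 2 lower), while 45.9% of all genes were called (24.8% higher, 21.1% lower) and 66.5% of those above background in every group. The 2 lines share no arrays. Over all 18820 genes, 3020 were higher in both lines, 2411 were lower in both and 328 went in opposite directions. The median change of the 8 genes was 0.54 and that of all genes 0.00. The groups did not overlap for 6 of the 8 genes, against 43.3% of all genes.

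Cdkn1a was at 11.15, 11.22, 10.98 and 10.93 in A2/12 arrays labelled 100, against 9.91, 9.72, 9.83 and 9.72 in A2/12 controls. The lowest serotonin array was well above the highest control, and the change was 1.27 ± 0.10 (adjusted p = 5.97e-10). Mdm2 was at 10.22, 10.11, 9.70 and 10.15 in A2/12 arrays labelled 100, against 8.79, 9.05, 8.98 and 9.14 in A2/12 controls. Replicate 3 was the lowest serotonin array and still lay above the controls, with a change of 1.06 ± 0.11 (adjusted p = 5.40e-08). Ccng1 was at 10.37, 10.44, 10.12 and 10.22 in A2/12 arrays labelled 100, against 10.11, 10.55, 10.33 and 10.55 in A2/12 controls. The cyclin G1 groups overlapped, and the change was -0.10, with a 95% confidence interval from -0.29 to 0.09 (adjusted p = 0.451).

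Aen was at 7.09, 7.14, 6.93 and 7.30 in A2/12 arrays labelled 100, against 5.30, 5.18, 5.75 and 5.60 in A2/12 controls. It had the largest increase of the 8 genes in this line, 1.66 ± 0.16 (adjusted p = 1.15e-08). Trp53inp1 was at 9.11, 9.19, 8.88 and 9.10 in A2/12 arrays labelled 100, against 8.05, 8.25, 8.25 and 8.42 in A2/12 controls. Its groups did not overlap, and the change was 0.83 ± 0.10 (adjusted p = 3.87e-07). Bbc3 was at 6.0, 5.89, 6.20 and 5.98 in A2/12 arrays labelled 100, against 5.97, 5.65, 5.84 and 5.63 in A2/12 controls. Here 1 control lay among the serotonin arrays, and the change of 0.24 ± 0.09 was only just called (adjusted p = 0.0401). Its call was lost without A2/12 control replicate 2 (adjusted p = 0.12) or 4 (0.13), without A2/12 serotonin replicate 1 (0.0622), 3 (0.149) or 4 (0.0573), with A2/12 fitted alone (0.0664) and with quantile normalization (0.132).

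Sesn1 was at 7.77, 7.46, 7.61 and 7.51 in A2/12 arrays labelled 100, against 9.38, 9.17, 9.37 and 9.41 in A2/12 controls. Sestrin 1 mRNA was thus far below the controls on every array, with a change of -1.74 ± 0.08 (adjusted p = 3.62e-13), or 3.35-fold lower. Phlda3 was at 9.49, 9.62, 9.51 and 9.25 in A2/12 arrays labelled 100, against 10.10, 10.12, 9.93 and 9.89 in A2/12 controls. The groups did not overlap, and the change was -0.54 ± 0.08 (adjusted p = 9.62e-06). Within the position numbers the A2/12 changes were 1.16 to 1.39 for Cdkn1a, 0.05 to 0.40 for Bbc3 and -1.91 to -1.53 for Sesn1. All 7 called genes kept their direction, which only that of Bbc3, whose groups overlapped, could have failed to do. In the 1 row with both kinds of A2/12 array the same held (1.47 for Cdkn1a and -1.79 for Sesn1).

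The response to serotonin labelled 100 was then compared between the lines, as the E46 change minus the A2/12 change. It differed for 5 of the 8 genes (1 higher, 4 lower), while 22% of all genes were called (11.1% higher, 10.9% lower). Cdkn1a rose less in E46 than in A2/12, with a difference of -0.81 ± 0.14 (adjusted p = 0.000159), and so did Aen, with -0.81 ± 0.22 (adjusted p = 0.00932). Sesn1 fell less in E46, with a difference of 0.40 ± 0.12 (adjusted p = 0.0157). Mdm2 rose less in E46 (-0.45 ± 0.16, adjusted p = 0.0418), and Phlda3 fell more in E46 (-0.33 ± 0.12, adjusted p = 0.0477). These last calls were weak. Mdm2 lost its call without any 1 of 11 of the 16 arrays (adjusted p up to 0.0957) and kept it without E46 control replicate 1, E46 labelled 100 replicate 4, A2/12 control replicate 2 or 4 or A2/12 labelled 100 replicate 3. Phlda3 also lost its call without any 1 of 11 arrays (adjusted p up to 0.11) and kept it without E46 control replicate 3, E46 labelled 100 replicate 3, A2/12 control replicate 1 or 2 or A2/12 labelled 100 replicate 4.

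For Bbc3 the change in E46 exceeded that in A2/12 by 0.37 ± 0.13, which was not called (adjusted p = 0.0525) but was called without E46 control replicate 1, E46 labelled 100 replicate 1, A2/12 control replicate 2 or 4 or A2/12 labelled 100 replicate 3 (adjusted p down to 0.0254). For Trp53inp1 the difference was -0.27 ± 0.14 (adjusted p = 0.19, 0.0383 without E46 control replicate 1 and 0.0234 with array weights), and for Ccng1 it was 0.10 ± 0.13 (adjusted p = 0.655). The median standard error of such a difference was 0.142 over all genes. The lines share no row of the scan positions, so line and row cannot be told apart.

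**Figure D3:**
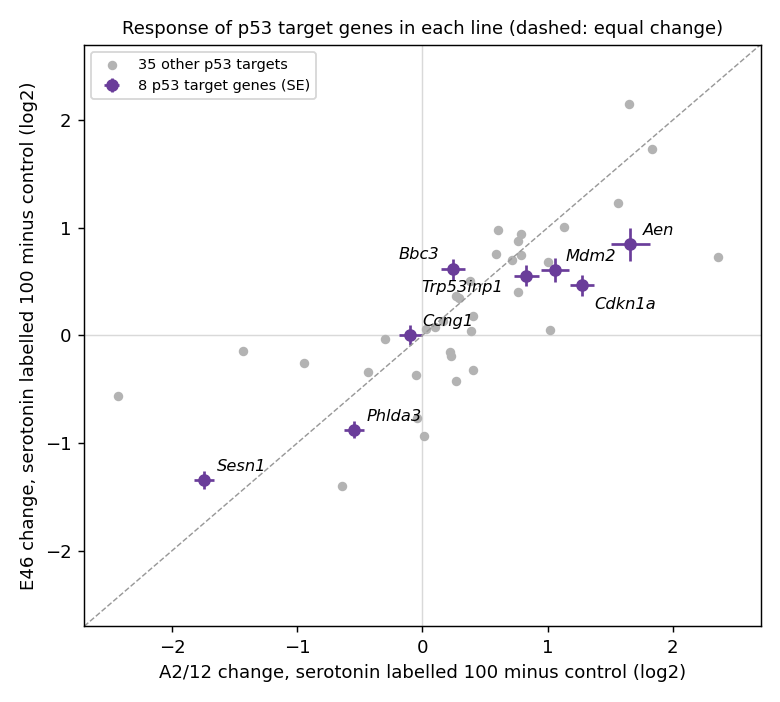
Log2 change with serotonin labelled 100 in A2/12 (horizontal axis) and in E46 (vertical axis) for the 8 p53 target genes, with error bars of 1 SE, and for 35 other p53 targets (grey). The dashed line marks equal change. Cdkn1a, Mdm2 and Aen rose more in A2/12, Sesn1 fell more in A2/12 and Phlda3 fell more in E46.

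Without serotonin the lines already differed in 4 of the 8 genes (1 higher and 3 lower in E46), while 39.1% of all genes were called (21.1% higher, 18.1% lower). Cdkn1a averaged 9.12 ± 0.15 in E46 controls and 9.80 ± 0.09 in A2/12 controls, a difference of -0.67 ± 0.10 (adjusted p = 9.02e-06). Bbc3 averaged 5.36 ± 0.11 in E46 controls and 5.77 ± 0.16 in A2/12 controls, a difference of -0.42 ± 0.09 (adjusted p = 0.00121). Sesn1 averaged 9.98 ± 0.06 in E46 controls and 9.33 ± 0.11 in A2/12 controls, a difference of 0.65 ± 0.08 (adjusted p = 1.36e-06). p21 and Puma mRNA thus lay lower, and sestrin 1 mRNA higher, in untreated E46. Phlda3 differed by -0.28 ± 0.08 (adjusted p = 0.0101), a call lost when arrays were centred on their medians (adjusted p = 0.106). Mdm2, Ccng1, Trp53inp1 and Aen were not called (adjusted p = 0.522, 0.605, 0.0727 and 0.164). Trp53inp1 was called without E46 control replicate 1 (adjusted p = 0.00753) or A2/12 control replicate 4 (0.0348). Aen was called with quantile normalization (adjusted p = 0.0424), with median centring (0.0458) and with the upper quartile as a covariate (0.0139).

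The order of the 5 groups varied between the genes. For Cdkn1a the A2/12 arrays labelled 100 were highest, A2/12 controls came next and E46 labelled 100 after them, with no overlap between these 3, and the other E46 groups overlapped at the bottom. For Mdm2 the labelled 100 groups of both lines overlapped at the top and the other 3 groups overlapped below. For Trp53inp1 the labelled 100 groups also overlapped at the top, and below them E46 controls overlapped both E46 labelled 1 and A2/12 controls, while E46 labelled 1 lay above A2/12 controls. For Aen, A2/12 labelled 100 lay above E46 labelled 100, and the other 3 groups overlapped below both. For Sesn1 the order downward was E46 controls and E46 labelled 1, which overlapped, then A2/12 controls, E46 labelled 100 and A2/12 labelled 100. For Phlda3 A2/12 controls were highest and E46 labelled 100 lowest. For Bbc3 both labelled 100 groups overlapped A2/12 controls.

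The arrays labelled 1 asked whether a lower dose moved the same genes in E46. None of the 8 genes was called by limma, 0 had an unadjusted p below 0.05, and 0.0106% of all genes were called (15.9% had an unadjusted p below 0.05). Across E46 controls, labelled 1 and labelled 100, Cdkn1a averaged 9.12 ± 0.15, 9.07 ± 0.22 and 9.59 ± 0.04. Over the same order Sesn1 averaged 9.98 ± 0.06, 9.85 ± 0.11 and 8.63 ± 0.12. Controls and arrays labelled 1 overlapped for both genes, and the arrays labelled 100 stood apart. Mdm2 averaged 9.09 ± 0.14, 9.17 ± 0.12 and 9.70 ± 0.14 over these groups, and Aen 5.74 ± 0.13, 5.55 ± 0.29 and 6.59 ± 0.31. The changes at labelled 1 lay between -0.19 (Aen) and 0.08 (Mdm2 and Ccng1), with adjusted p from 0.428 to 0.98. The 95% confidence interval of every gene held 0. The lowest bound was -0.52 (Aen) and the highest 0.31 (Mdm2), while the interval of Phlda3 ran from -0.18 to 0.17. With 4 arrays a group, a change inside a gene's own interval is not excluded.

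The remaining genes showed the same picture at labelled 1. Bbc3 was at 5.09, 5.35, 5.41 and 5.41 in E46 arrays labelled 1, Trp53inp1 at 8.47, 8.65, 8.45 and 8.49, and Phlda3 at 9.77, 9.72, 9.70 and 9.72. Each overlapped its E46 controls. Set against labelled 1, the arrays labelled 100 differed in 7 of the 8 genes (5 higher, 2 lower), while 41.4% of all genes were called (23.6% higher, 17.8% lower). Sesn1 differed by -1.21, Phlda3 by -0.87, Aen by 1.04 and Cdkn1a by 0.52. Ccng1 was not called (-0.08, adjusted p = 0.555). With the doses of the other label these directions turn, and the changes given for labelled 100 against E46 controls become those of labelled 1. The arrays labelled 1 share no row of the scan positions with E46 controls.

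The wider p53 pathway was described with lists of genes, whose counts are read against the 39.6% of all genes called in E46 and 45.9% in A2/12 (58.9% and 66.5% of those above background in every group). Of 16 measured regulators of p53, 8 were higher and 4 lower with serotonin labelled 100 in E46, and 7 were higher and 6 lower in A2/12. The median change was 0.21 in E46 and 0.12 in A2/12, against 0.00 over all genes in both lines. Where a list gene is given below for 1 line only, its change in the other line is left out, whatever its size. Mdm4, the partner of Mdm2 that inhibits p53, was at 9.37, 9.74, 9.61 and 9.56 in E46 arrays labelled 100, against 8.28, 8.90, 8.85 and 8.92 in E46 controls. In A2/12 it was at 9.76, 9.74, 9.50 and 9.84 in arrays labelled 100, against 8.70, 8.76, 8.90 and 9.09 in controls. Mdm4 rose in both lines, by 0.84 ± 0.14 in E46 and 0.85 ± 0.14 in A2/12. Cdkn2a, whose product Arf restrains Mdm2, fell by 0.91 ± 0.09 in E46 and by 1.70 ± 0.09 in A2/12. The DNA damage kinase genes Atr (1.31 ± 0.15 in E46, 1.12 ± 0.15 in A2/12) and Chek2 (0.88 ± 0.11 in E46, 0.68 ± 0.11 in A2/12) rose in both. Hipk2, a kinase that phosphorylates p53, fell in A2/12 (-0.64 ± 0.08) and was not called in E46 (0.15 ± 0.08), and Trp63, a p53 relative, fell in both lines (-0.41 ± 0.07 in E46, -0.47 ± 0.07 in A2/12).

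Beyond the 8 genes, 35 other p53 targets were measured. In E46, 17 were higher and 8 lower (median change 0.14), and in A2/12, 20 were higher and 6 lower (median 0.38), while 39.6% and 45.9% of all genes were called, with a median of 0.00. In both lines together 16 were higher, 3 were lower and 1, the autophagy gene Dram1, went in opposite directions (-0.32 in E46, 0.41 in A2/12). Of all 18820 genes, 3020 were higher in both lines, 2411 were lower in both and 328 went in opposite directions. Among 14 targets for cell cycle and DNA repair, 8 were higher and 1 lower in E46, and 9 were higher and 2 lower in A2/12. The polo-like kinase gene Plk2 rose by 1.73 ± 0.09 in E46 and 1.83 ± 0.09 in A2/12, the growth arrest gene Gadd45a by 1.23 ± 0.08 and 1.56 ± 0.08, and Plk3 by 1.01 ± 0.09 and 1.13 ± 0.09. The antiproliferative gene Btg2 rose by 0.70 ± 0.10 in E46. Psrc1, which encodes a spindle protein, fell in A2/12 (-0.94 ± 0.11) and was not called in E46 (-0.26 ± 0.11).

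Among 10 targets for cell death, 3 were higher and 5 lower in E46, and 5 were higher and 0 lower in A2/12, where 45.9% of all genes and 66.5% of those above background were called. The difference between the lines was called for 5 of them (22% over all genes), each with a negative difference (E46 minus A2/12). The death receptor gene Tnfrsf10b rose by 0.87 ± 0.08 in E46 and 0.77 ± 0.08 in A2/12, and Eda2r, another receptor of that family, by 0.98 ± 0.12 and 0.61 ± 0.12. Fas, the receptor of Fas ligand, fell in E46 (-0.77 ± 0.10) and was at -0.04 ± 0.10 in A2/12, with a called difference of -0.72 ± 0.14 (adjusted p = 0.000559). Perp, a membrane protein gene, fell in E46 (-0.93 ± 0.09) and was at 0.01 ± 0.09 in A2/12, where its level was near the background. Ei24 rose in A2/12 (0.22 ± 0.06) and was not called in E46 (-0.15 ± 0.06). Among 11 targets for metabolism and signalling, 6 were higher and 2 lower in E46, and 6 were higher and 4 lower in A2/12. They included Sesn2, the stress-inducible relative of Sesn1, which rose by 2.15 ± 0.11 in E46 and 1.65 ± 0.11 in A2/12. The cytokine gene Lif rose by 0.73 ± 0.11 in E46 and 2.36 ± 0.11 in A2/12. The adenylate kinase gene Ak1 (-1.40 ± 0.08 in E46), the epoxide hydrolase gene Ephx1 (-0.57 ± 0.09 in E46, -2.43 ± 0.09 in A2/12) and the diacylglycerol kinase gene Dgka (-1.44 ± 0.08 in A2/12) fell.

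**Figure D4:**
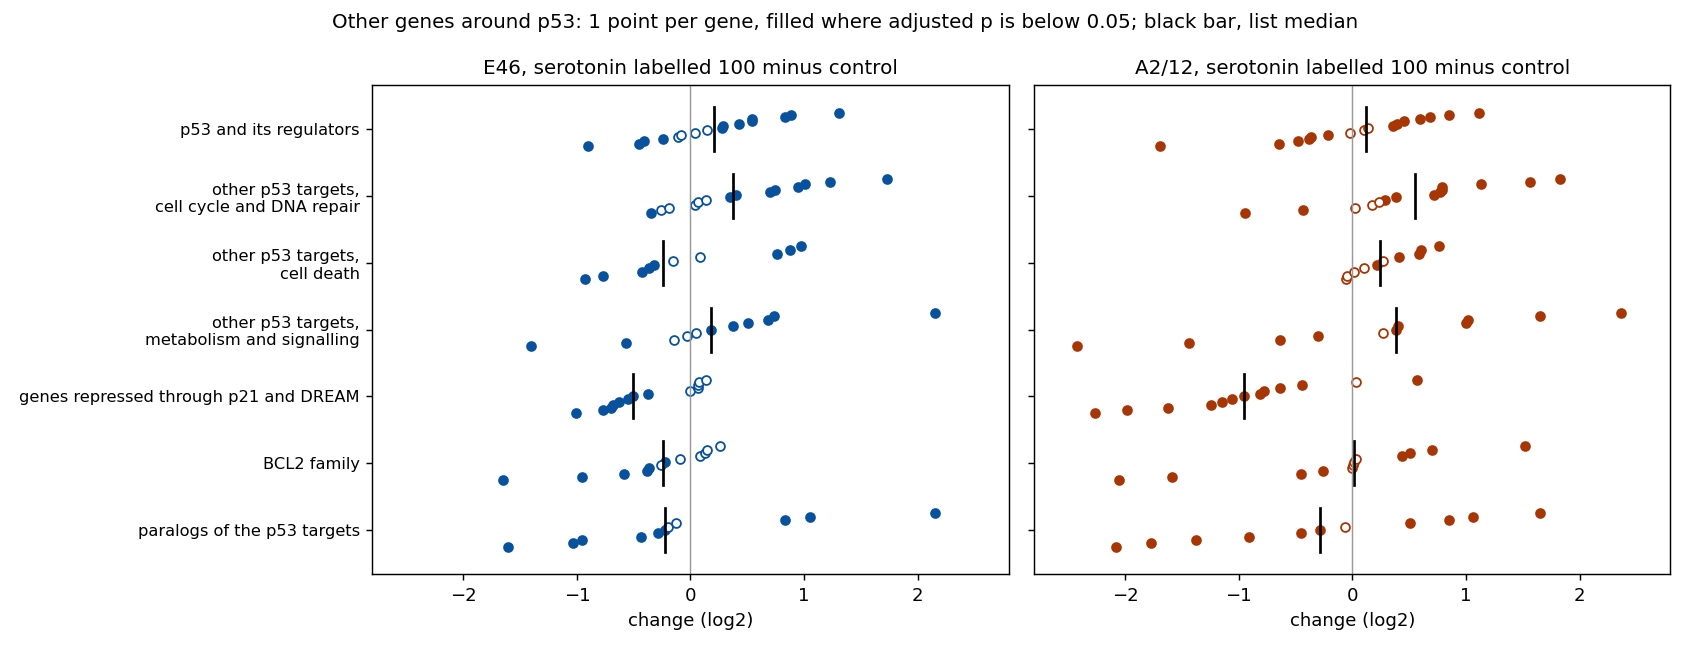
Log2 changes with serotonin labelled 100 for the genes of 7 lists in E46 and A2/12, with 1 point per gene, filled where called, and a black bar at each median. Of the 13 genes listed as repressed through p21 and DREAM, 8 were lower in E46 and 11 in A2/12, where 1 was higher. Of all genes, 19.3% were lower in E46 and 21.1% in A2/12. The cause was not tested.

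p21 is known to lower the genes of cell division through the repressor complex DREAM. Of all genes, 20.3% were higher and 19.3% lower in E46, and 24.8% were higher and 21.1% lower in A2/12. Of 13 genes listed as repressed in this way, 0 were higher and 8 lower in E46 (median change -0.51). In A2/12, 1 of them was higher and 11 were lower (median -0.95). The 1 that rose in A2/12 was Mybl2, named after its value was seen (0.56 ± 0.10). The response differed between the lines for 9 of the 13, with a positive difference (E46 minus A2/12) for 8 and a negative one for 1. This difference was called for 22% of all genes (11.1% higher, 10.9% lower). The proliferation marker Mki67 fell by 1.01 ± 0.10 in E46 and 1.99 ± 0.10 in A2/12. The mitotic kinase gene Plk1 fell by 0.77 ± 0.08 in E46 and 1.62 ± 0.08 in A2/12, and the mitotic cyclin gene Ccnb2 by 0.38 ± 0.07 and 2.27 ± 0.07. Aurkb fell by 0.70 ± 0.05 and Cdk1 by 0.63 ± 0.07 in E46, and Cdc20 fell by 1.15 ± 0.07 in A2/12. The part of p21 or DREAM in these falls was not tested. The cells had no serum in any group. In bulk RNA, fewer cells of a type and less RNA per cell cannot be told apart.

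Genes of the integrated stress response, a programme that can reach some p53 targets without p53, moved at the same time. Of 9 measured, 7 were higher and 1 lower in E46 (median change 1.46), and 8 were higher and 1 lower in A2/12 (median 1.53). Of all genes, 39.6% were called in E46 and 45.9% in A2/12. The glutathione-degrading enzyme gene Chac1 rose by 1.69 ± 0.08 in E46 and 2.40 ± 0.08 in A2/12. None of the 9 was called at labelled 1, as was so for the other lists. Their part in the changes of the 8 p53 targets was not tested.

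Bbc3 belongs to the BCL2 family, the proteins that open or guard the outer mitochondrial membrane. Of 12 other measured members, 0 were higher and 6 lower in E46, and 4 were higher and 4 lower in A2/12. These shares are near those of genes above background in every group (58.9% in E46, 66.5% in A2/12). Bmf, another BH3-only gene, fell by 1.65 ± 0.12 in E46 and 2.06 ± 0.12 in A2/12, whereas the BH3-only gene Bid rose in A2/12 (1.52 ± 0.07) and was not called in E46 (0.15 ± 0.07). The guardian Bcl2 fell by 0.39 ± 0.08 in E46 and 1.59 ± 0.08 in A2/12. The related guardian Bcl2l1 fell by 0.58 ± 0.07 in E46 and rose by 0.70 ± 0.07 in A2/12, and the effector gene Bak1, named after its values were seen, also went in opposite directions (-0.22 ± 0.08 in E46, 0.51 ± 0.08 in A2/12). Bok fell by 0.95 ± 0.11 in E46.

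Of 11 paralogs of the p53 targets, 3 were higher and 6 lower in E46, and 4 were higher and 6 lower in A2/12, while 58.9% and 66.5% of genes above background in every group were called. The sestrin family divided: Sesn2 rose, as given above, while Sesn3 fell with Sesn1, by 1.04 ± 0.10 in E46 and 2.08 ± 0.10 in A2/12. Trp53inp2, the autophagy-related relative of Trp53inp1, fell by 1.61 ± 0.10 in E46 and 1.78 ± 0.10 in A2/12, opposite to Trp53inp1. Cdkn1b, which encodes the p21 relative p27, fell by 1.37 ± 0.07 in A2/12, opposite to Cdkn1a.

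The genes most like Cdkn1a and Mdm2 over the 5 group means were found by the root mean square difference after centring each gene. For Cdkn1a they were Zfp677 (0.0779), Rbmx2 (0.0997), Rsl1 (0.115), Arrdc4 (0.120) and Foxf1 (0.126). For Mdm2 they were Rars (0.0253), Zmynd19 (0.0392), Popdc2 (0.0432), Vcpkmt (0.0446) and Bccip (0.0466). None of these is among the 8 p53 targets.

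Markers of other cell types were followed beside these changes. Of all genes, 39.6% were called in E46 (19.3% lower) and 45.9% in A2/12 (21.1% lower). Of those above background in every group, 58.9% and 66.5% were called. Of 6 mesenchymal markers 5 lay above background in every group (Lum did not), and 5 fell in each line. A joint level was taken on each array as the log2 of the mean of the unlogged marker values. For the mesenchymal markers it was 8.98 to 9.64 in E46 labelled 100, against 10.85 to 10.97 in E46 controls. In A2/12 it was 8.80 to 9.24 with labelled 100, against 11.48 to 11.64 in controls. Of 7 neuronal markers, 2 fell in E46 and 4 in A2/12, with a median change of -0.07 in E46 and -0.66 in A2/12. Their joint level, in which the brightest markers weigh most, was 6.70 to 7.02 in E46 labelled 100, against 7.91 to 8.06 in E46 controls. In A2/12 the neuronal joint level was 6.60 to 6.80 with labelled 100, against 8.03 to 8.2 in controls. Of 6 astrocyte markers 4 fell in E46 and 3 in A2/12, and Gfap and Aqp4 were below background in every group. The falls among these markers came in the same comparisons as the changes of the p53 targets, and their part in the result was not tested. Of 6 microglia and macrophage markers 1 rose in each line, and Aif1 and Itgam were below background in every group. Of 3 oligodendrocyte markers 0 were called in E46 and 1 fell in A2/12, with Mog and Mag below background. Of 7 intestinal markers 0 were called in either line, with 4 below background in every group. The upper quartile of an array ran from 8.09 to 8.31 and the correlation between any pair of arrays from 0.927 to 0.995. Without the 4 arrays whose upper quartile was under 8.2, 7 of the 8 genes were still called in E46 and 6 in A2/12, where Bbc3 was lost (adjusted p = 0.077).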

How the data were processed

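Values are deposited log2 expression levels of 35556 probe sets on 20 Affymetrix gene arrays, which the authors made with RMA per the submitters' processing notes (version not given in the sources used here). Of the probe sets 21218 have 1 symbol in the array annotation, 1881 several and 12457 none, and only the first kind was used, with the highest mean where a gene had several, which left 18820 genes. With limma 3.58.1 (R 4.3.3) a linear model with group means was fitted over the 20 arrays, leaving 15 residual degrees of freedom, followed by eBayes and Benjamini-Hochberg adjustment over all genes. Calls were made at an adjusted p below 0.05. Precision is limited by the number of arrays, with a median standard error of 0.100 per change. The p53 targets and 14 lists (127 of 140 genes measured) were chosen with earlier results of these data known. Named genes are the p53 targets, Mdm4, the 4 genes of each list other than markers with the smallest adjusted p in each line (of the stress list, only Chac1 is given), the 5 most like Cdkn1a and Mdm2, and others said to be named after their values were seen. Promoter windows came from RefSeq (GRCm38.p6), and plots were made in Python 3.11.15 (matplotlib 3.10.9). The code was tested on simulated data. Alternatives were each line alone, other eBayes and array weights, replicate or position blocks, other normalizations, filters, probe sets, the other dose label and leaving out arrays. Of these, leaving out 4 arrays of low upper quartile or 2 controls and the upper quartile as a covariate were added after seeing the data.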

Additional observations from a re-analysis of the deposited data

Results flagged for a closer look

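The responses to serotonin labelled 100 differed between E46 and A2/12 for 5 of the 8 p53 targets by limma's test of the difference, while 22% of all genes were called. As the E46 change minus the A2/12 change on the log2 scale, the values were -0.8096 for Cdkn1a, -0.4512 for Mdm2, 0.3977 for Sesn1, -0.3293 for Phlda3 and -0.8139 for Aen. The calls of Mdm2 and Phlda3 were weak, and each was lost without any 1 of 11 of the 16 arrays. Among the 40 sets of 4 arrays (8 genes in 5 groups), 1 held an array far from the others. Sesn1 on A2/12 control replicate 2 was at 9.17, below the other 3 controls, with a gap of 0.8506 of the group's range. Chance alone sets apart about 1 in 20 such sets, and the fall of Sesn1 in A2/12 was called without this array as well.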

How the results depend on the processing

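The 5 genes that rose and the 2 that fell with serotonin labelled 100 kept their direction in both lines under every alternative but the doses of the other label. Where arrays were only left out, this was fixed in advance for all but Bbc3 in A2/12, because the groups did not overlap. With those doses the counts for E46 labelled 100 against E46 controls were 2 of all genes and 0 of the p53 targets, and for labelled 1 against E46 controls 7451 and 7, and 7435 of all genes differed in response. The changes that turned were then -0.055 for Cdkn1a, -0.042 for Bbc3 and -0.19 for Aen at labelled 100, and 0.46, 0.61 and 0.85 at labelled 1. Labelled 100 against labelled 1 became -0.52 for Cdkn1a, -0.53 for Mdm2, 1.21 for Sesn1, -0.66 for Bbc3, -0.51 for Trp53inp1, 0.87 for Phlda3 and -1.04 for Aen, and the difference of responses became 0.54 for Phlda3. Within position numbers 5, 7 and 9, which leave at most 2 arrays a group, E46 labelled 100 against E46 controls gave 3183, 3469 and 871 genes, labelled 1 against E46 controls 0, 0 and 1, labelled 100 against labelled 1 2051, 5107 and 1371, and A2/12 labelled 100 against A2/12 controls 4161, 7057 and 1864. The difference of responses gave 886, 1593 and 73 genes and E46 against A2/12 controls 3782, 3674 and 1292. The same 3 numbers gave 5, 3 and 1 p53 targets for E46 labelled 100 against E46 controls, 3, 5 and 1 for labelled 100 against labelled 1, 5, 6 and 4 in A2/12, 0, 1 and 0 for the difference, and 2, 1 and 0 between controls. For labelled 1 against E46 controls, 2 genes became 0 with E46 alone, and 1 with the replicate block, the position block, quantile normalization, median centring, the probe set of largest variance, the low arrays left out or 2 controls left out.

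Leaving out each array gave 6773 to 7272 genes and 7 p53 targets in E46 labelled 100 against E46 controls, 1 to 284 genes (284 without E46 labelled 1 replicate 2) and 0 p53 targets in labelled 1 against E46 controls, and 7037 to 8194 genes and 7 p53 targets in labelled 100 against labelled 1. It gave 8190 to 8439 genes and 6 to 7 p53 targets in A2/12, 3751 to 4257 and 3 to 6 for the difference, and 6810 to 7183 and 4 to 5 between controls. Nothing in the labels says that the replicate numbers pair the samples. The deviations of same-numbered arrays from their group means had correlations of -0.26 to 0.41, which do not settle whether they were paired. With the replicate number as a block Bbc3 in A2/12 was not called (adjusted p = 0.0535), and Trp53inp1 differed between controls (adjusted p = 0.0453), and none of the other calls among 48 changes (8 genes, 6 comparisons) moved. The difference of Phlda3 was lost with the position block (adjusted p = 0.0587) and with median centring (0.109), and that of Bbc3 was called with array weights (0.00167) or without dim genes (0.0368). Without the arrays of low upper quartile the difference of Phlda3 was lost (adjusted p = 0.0607) and that of Bbc3 was called (0.0136). With the upper quartile as a covariate that of Bbc3 was called (adjusted p = 0.0439), and without 2 controls that of Mdm2 was lost (0.0507). The causes were not tested.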
